A study of Mus musculus with 8 samples.

Results

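The apelin and Cxcl12 ligand-receptor systems were followed through 6 genes, the apelin-side ligands Apln and Apela with their receptor Aplnr, and the chemokine Cxcl12 with its receptors Cxcr4 and Ackr3. The members were picked by symbol, not by a measured value, and all 6 of 6 were found among 34536 gene symbols and had enough counts to be among the 13817 tested. The RNA came from mouse embryoid bodies, clumps of stem cells left to differentiate in a dish, whose cells were collected by fluorescence-activated sorting. By label, libraries A, C, E and G are endocardial (n = 4), a name for the endothelium that lines the heart, and libraries B, D, F and H are endothelial (n = 4). No genotype, strain, treatment, culture day, sort marker or stem cell line was given in the sources used here, and nothing says that the libraries came from separate cultures, so the spread behind each p-value is that among these libraries and could be technical.

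Apelin, the product of Apln, and Elabela, the product of Apela, are short secreted peptides that act on the same G protein-coupled receptor, Aplnr. Aplnr is known from early cardiac mesoderm and from venous endothelium, Apln from the tips of growing vessels, and Apela from pluripotent cells and the early embryo, where it guides mesendodermal migration. Cxcl12 is a chemokine that attracts cells through Cxcr4, a Gi-coupled receptor, while Ackr3 binds the same chemokine, signals through arrestins and removes the ligand from the surroundings. Cxcl12 and Cxcr4 are known for their part in the growth of coronary and other arteries.

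The sequences upstream of 3 members differ in the motifs they hold near the start. Apela is shown as the ligand whose ratio to its receptor separated the groups, and Cxcr4 and Ackr3 as the pair of receptors that share a ligand. Each run is the 250 bases before the RefSeq transcription start (build GRCm38.p6), written 5′ to 3′ on the strand of the gene, and 5 of 6 members matched an entry. Capitals mark matches, on either strand, to the octamer part TTTGCAT, the forkhead motif GTAAACA and the TATA box TATAAA.
Apela: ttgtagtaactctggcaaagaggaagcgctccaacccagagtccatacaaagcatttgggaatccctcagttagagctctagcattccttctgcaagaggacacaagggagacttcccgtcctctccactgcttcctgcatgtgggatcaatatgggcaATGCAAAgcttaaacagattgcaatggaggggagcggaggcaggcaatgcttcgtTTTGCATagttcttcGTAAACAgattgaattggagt
Cxcr4: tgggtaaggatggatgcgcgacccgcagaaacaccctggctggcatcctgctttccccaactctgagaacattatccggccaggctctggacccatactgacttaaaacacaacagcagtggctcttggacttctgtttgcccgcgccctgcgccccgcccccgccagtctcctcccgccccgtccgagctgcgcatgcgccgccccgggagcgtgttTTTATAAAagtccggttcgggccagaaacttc
Ackr3: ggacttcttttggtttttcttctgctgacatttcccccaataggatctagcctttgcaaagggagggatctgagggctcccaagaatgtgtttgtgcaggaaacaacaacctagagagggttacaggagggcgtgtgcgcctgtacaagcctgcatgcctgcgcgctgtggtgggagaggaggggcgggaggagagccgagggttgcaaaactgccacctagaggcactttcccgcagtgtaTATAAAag
The Apela window lies at chr8:65037337-65037586 on the minus strand, that of Cxcr4 at chr1:128592300-128592549 on the minus strand and that of Ackr3 at chr1:90203730-90203979 on the plus strand. Apela had 2 octamer matches, at 91 and 36 bases before the start, and 1 forkhead match at 21 bases. Of 32851 windows of the same length, 4.12% held the octamer part and 3.17% the forkhead motif. Cxcr4 had TATAAA at 30 bases before the start, overlapping a match on the other strand, and Ackr3 had it at 8 bases, where 12.4% of all windows held it. The Apln and Cxcl12 windows held none of these 3 motifs, and the hypoxia core ACGTG (16.6% of windows) and the GATA motif AGATAA (9.99%) had no match in any of the 5. The GC box GGGCGG, found in 32.7% of windows, occurred 5 times for Cxcl12, 3 times for Cxcr4, once each for Apln and Ackr3 and not for Apela. The E-box CANNTG, found in 66.2% of windows, matched 3 times for Apln and 2 times for Apela. A match is a description of letters, not a bound site.

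Library totals ran from 6677667 to 11369363 estimated counts, and 3 counts correspond to between 0.267 and 0.438 CPM (counts scaled to a common library total, with TMM factors), which covers counting error only. By edgeR's quasi-likelihood test, 356 of 13817 genes (2.58%) were called at a Benjamini-Hochberg adjusted p below 0.05, 1.42% higher and 1.16% lower in the endocardial libraries. DESeq2 called 6.25% of genes and limma 7.06%. Both groups held transcripts of the endothelial markers. Of 17 pan-endothelial markers, the endocardial libraries had 14 called higher and 0 lower, and 4 of 14 tested endocardial markers were higher (Nfatc1, Hapln1, Plxnd1 and Nrg1), so the label endothelial goes with the lower level of shared endothelial genes. In these bulk samples, fewer cells of a type and less RNA per cell cannot be told apart.

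Of the 6 members, 1 was called, the receptor Aplnr, which was higher in the endocardial libraries. The other 5 were not called over all genes by edgeR, with 1 of them, Apela, at an unadjusted p under 0.05. The share of all tested genes called was 2.58%, and 14.6% had an unadjusted p under 0.05. Groups lay apart, with no overlap of 4 libraries against 4, for Aplnr alone among the members and for 9.76% of all tested genes.

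**Figure D1:**
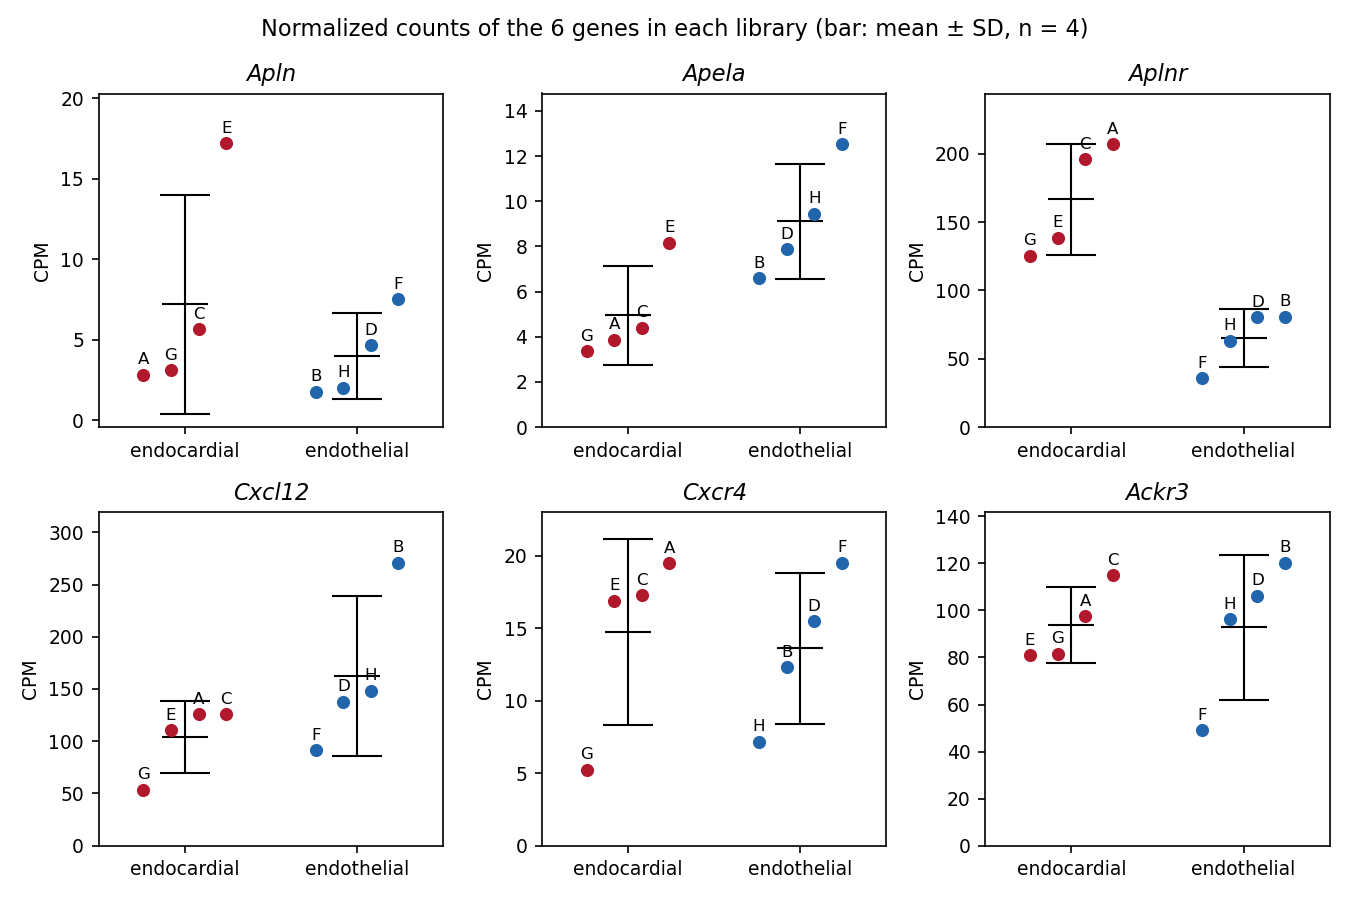
CPM of each of the 6 genes (vertical axes, linear, from about 0) in the 4 endocardial (red) and 4 endothelial (blue) libraries, with library letters and the mean ± SD. The Aplnr groups lie apart, with all endocardial values at 125 or above and all endothelial values at 80.7 or below, and the other 5 genes overlap.

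Aplnr (ENSMUSG00000044338.9; GRCm38, chromosome 2, 85136225 to 85139923, plus strand, protein-coding) had 207 CPM in library A, 196 in C, 139 in E and 125 in G, against 80.7 in B, 80.6 in D, 63.1 in H and 35.7 in F. Every endocardial library lay above every endothelial one, and F stood lowest. The means were 167 ± 40.7 and 65.0 ± 21.2 CPM (SD, n = 4 each), a 2.57-fold difference (log2 fold change 1.36, SE 0.27, edgeR adjusted p = 0.0309). The call was lost without A (adjusted p = 0.0967), C (0.105), D (0.0589), E (0.0708) or H (0.0630), and was kept without B, F or G. Of all tested genes, 177 had a higher log2 fold change. So had 14 of the 17 pan-endothelial markers, whose median was 2.34, and none was at 0 in all libraries. Their summed CPM was 1512 to 1927 in the endocardial and 420 to 880 in the endothelial libraries, and their mean log2 CPM ran from 5.28 to 5.63 and from 3.20 to 3.49. Their part in the Aplnr difference was not tested.

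Apela (ENSMUSG00000079042.10; chromosome 8, 65028417 to 65037336, minus strand, protein-coding) had 6.60 CPM in B, 7.89 in D, 9.45 in H and 12.5 in F, against 3.37 in G, 3.87 in A, 4.40 in C and 8.17 in E. Only E, at 76 counts, reached into the endothelial range, above B and D. Apela averaged 4.95 ± 2.19 CPM in endocardial against 9.11 ± 2.55 CPM in endothelial libraries (SD, n = 4 each; log2 fold change -0.87, SE 0.32, edgeR adjusted p = 0.233). The gene was called lower in the endocardial libraries by limma (adjusted p = 0.0448), which called 4.09% of all genes lower, and not by DESeq2 (0.142), which called 3.85% lower. Without E the log2 fold change was -1.24 (adjusted p = 0.0918). The annotation has another gene, Gm45886, which overlaps Apela and was not analysed here, so reads of any shared exons cannot be assigned to Apela with certainty.

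The mean level of pluripotency markers was lower in the endocardial libraries, as was that of Apela. The mean log2 CPM of 15 pluripotency markers was 1.97 in A, 2.14 in C, 2.15 in G and 3.60 in E, and 3.87 in B, 4.30 in D, 4.50 in H and 5.80 in F. E was the highest endocardial and F the highest endothelial library for both the markers and Apela. The order within the endocardial group was not the same, with A lowest for the markers and G for Apela. Of the 15, edgeR called 2 lower in the endocardial libraries (Tdgf1 and Fgf4) and 0 higher, where 1.16% of all genes were called lower. DESeq2 called 8 lower and limma 10, where 3.85% and 4.09% of all genes were. A negative log2 fold change was found for 14, and the list median was -2.26 beside 0.01 over all tested genes. None of the 15 was at 0 in all libraries, and their summed CPM was 417 to 598 in the endocardial and 553 to 1486 in the endothelial group. Lin28a, their most abundant member and a pluripotency RNA-binding protein, was at 349.97 ± 56.6 and 352.8 ± 86.2 CPM (SD, n = 4 each; log2 fold change -0.01). Of 17 endoderm markers, 9 were tested, and their summed CPM was 56.1 to 95.8 in the endocardial and 55.2 to 119.5 in the endothelial group. The members went both ways, with Sox17 and Hhex called higher in the endocardial libraries and Epcam, an epithelial adhesion gene also found on pluripotent cells, called lower. Epcam had 8.91, 6.699, 10.2 and 5.12 CPM in A, C, E and G and 14.8, 20.7, 71.6 and 34.9 in B, D, F and H, with F highest, as for Apela.

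Neural markers also had a lower mean level in the endocardial libraries, as Apela had. Of 12, 8 were tested, and edgeR called 3 lower in the endocardial libraries (Sox1, Pax6 and Sox3, transcription factors of neural progenitors) and 0 higher. Of all genes it called 1.16% lower. The list median was -1.74. The most abundant markers of the list, Nes, Map2 and Tubb3, were not called by edgeR (log2 fold changes -0.06, -2.08 and 0.09). The mean log2 CPM of the tested neural markers was 1.66 in A, 2.36 in C, 2.13 in E and 1.24 in G, and 3.09 in B, 3.61 in D, 3.80 in F and 2.71 in H. The groups lay apart and F was highest, but the order within the groups was not that of Apela. Among the endocardial libraries C was highest for the markers and E for Apela. Among the endothelial ones H was lowest for the markers and B for Apela. The summed CPM of the 12 was 134 to 216 in the endocardial and 174 to 255 in the endothelial group, and none was at 0 in all libraries. The part of pluripotent, endodermal or neural cells in the Apela values was not tested.

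**Figure D2:**
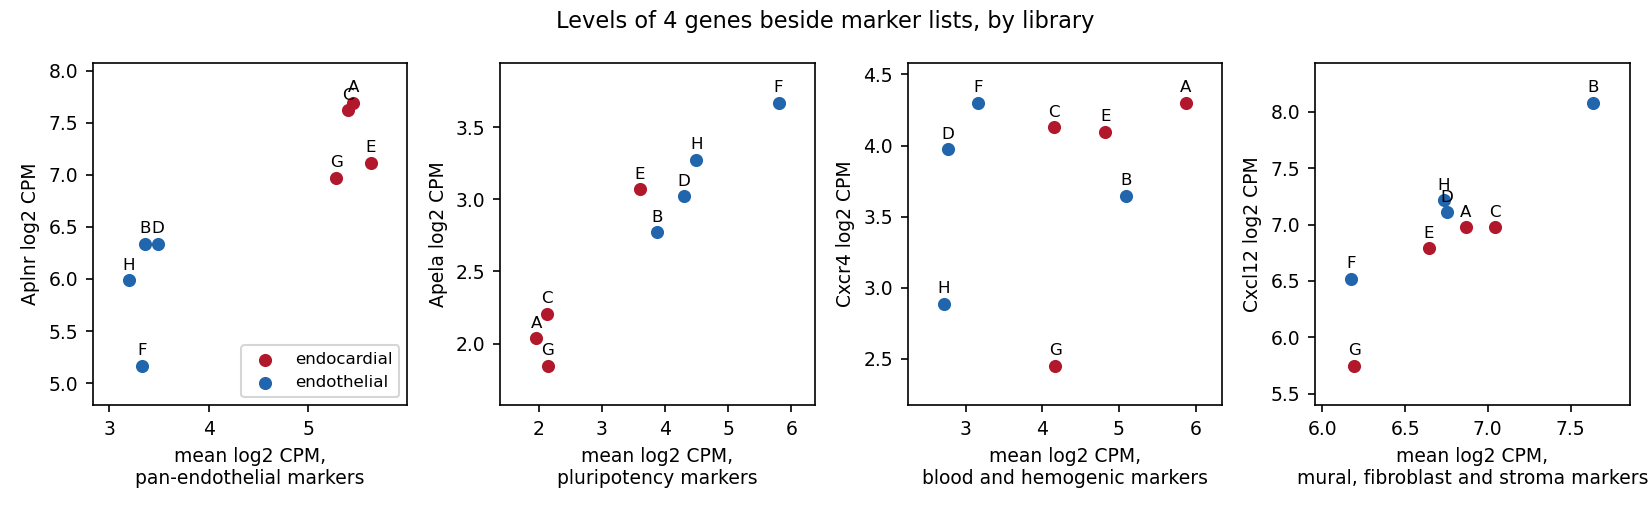
Log2 CPM of Aplnr, Apela, Cxcr4 and Cxcl12 (vertical axes) against the mean log2 CPM of a marker list (horizontal axes), 1 point per library with its letter. Apela is highest in F, where the pluripotency markers are at 5.80, and Cxcl12 is highest in B, where the stromal markers are at 7.64.

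Apln (ENSMUSG00000037010.7; chromosome X, 48025146 to 48034853, minus strand, protein-coding), the other ligand of Aplnr, rested on few counts, between 17 (H) and 160 (E). It had 2.84 CPM in A, 3.12 in G, 5.65 in C and 17.2 in E, and 1.78 in B, 2.03 in H, 4.67 in D and 7.51 in F. E stood far above the other endocardial libraries, and the groups overlapped. The means were 7.20 ± 6.79 and 3.9998 ± 2.68 CPM (SD, n = 4 each; log2 fold change 0.86, SE 0.66, edgeR adjusted p = 0.638). Without E the log2 fold change was -0.05 (SE 0.55, edgeR adjusted p = 0.985).

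Cxcl12 (ENSMUSG00000061353.11; chromosome 6, 117168535 to 117181367, plus strand, protein-coding) had 126 CPM in A, 126 in C, 110 in E and 53.5 in G, against 271 in B, 148 in H, 138 in D and 91.6 in F. Library F lay within the endocardial range, and the other 3 endothelial libraries lay above all endocardial ones. The means were 104 ± 34.3 and 162 ± 76.5 CPM (SD, n = 4 each; log2 fold change -0.64, SE 0.35, edgeR adjusted p = 0.468). Without B, the highest library, the log2 fold change was -0.26 (SE 0.29, adjusted p = 0.755). Cxcl12 is known from stromal cells, and the summed CPM of 14 mural, fibroblast and stromal markers, led by the collagen genes Col1a1, Col1a2 and Col3a1, was 27494 in B, 11327 in H, 8606 in D and 4354 in F, against 5758 to 9283 in the endocardial libraries. None of the 14 was called by edgeR, DESeq2 or limma, and before adjustment edgeR had a p under 0.05 for 2 of them, 1 higher and 1 lower. B had the most of both the markers and Cxcl12, and F had the least of both in its group. The mean log2 CPM of the markers was 7.64 in B, 6.74 in H, 6.75 in D and 6.18 in F, against 6.19 to 7.04 in the endocardial libraries. D had more Cxcl12 than A and C, with a marker sum of 8606 against 9283 in A and 8634 in C. Both H and D had more Cxcl12 than A and C and a lower mean log2 CPM of the markers (6.87 in A, 7.04 in C). Of the 14 markers, 7 had a negative log2 fold change. The part of these markers in the Cxcl12 values was not tested.

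The signalling receptor Cxcr4 (ENSMUSG00000045382.6; chromosome 1, 128588199 to 128592293, minus strand, protein-coding) had 19.5 CPM in A, 17.3 in C, 16.9 in E and 5.24 in G, and 12.3 in B, 15.5 in D, 19.5 in F and 7.17 in H. Both groups spanned nearly the same range, with G and H lowest in each. The means were 14.7 ± 6.43 and 13.6 ± 5.21 CPM (SD, n = 4 each; log2 fold change 0.11, SE 0.40, edgeR adjusted p = 0.94), and the sign turned without A (-0.06) or H (-0.10). Cxcr4 is also known from blood cells. Among 16 blood and hemogenic markers, edgeR called 3 higher in the endocardial libraries (Tal1, Gfi1b and Lmo2), DESeq2 6 and limma 7. Of all genes, these fits called 1.42%, 2.4% and 2.97% higher. No marker was called lower, but 3 globin genes had a negative log2 fold change, Hba-x (-0.35), Hbb-y (-1.37) and Hba-a1 (-0.11). The mean log2 CPM of the 16 was 4.16 to 5.87 in the endocardial and 2.72 to 5.09 in the endothelial group, with none at 0 in all libraries. Their summed CPM was 704 to 2100 and 305 to 2627, with B highest. The part of these markers in the Cxcr4 values was not tested.

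The scavenging receptor Ackr3 (ENSMUSG00000044337.5; chromosome 1, 90203980 to 90216751, plus strand, protein-coding) had 97.5 CPM in A, 115 in C, 81.0 in E and 81.6 in G, and 120 in B, 106 in D, 49.0 in F and 96.1 in H. The endocardial values lay inside the range of the endothelial ones, and F stood apart below the rest. The means were 93.8 ± 16.1 and 92.9 ± 30.9 CPM (SD, n = 4 each; log2 fold change 0.01, SE 0.25, edgeR adjusted p = 0.988). The sign depended on scaling and on single libraries, at -0.02 with upper-quartile scaling, -0.02 without A, -0.12 without C and -0.21 (SE 0.15) without F.

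Library F held the extreme of its group for all 6 members, the highest for Apln, Apela and Cxcr4 and the lowest for Aplnr, Cxcl12 and Ackr3. Library B held the opposite extreme for 5 of them, the exception being Cxcr4. Among the endocardial libraries, G was lowest for Aplnr, Apela, Cxcl12 and Cxcr4. The fold changes of all 6 genes under each fit, including those without F, are plotted together.

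**Figure D3:**
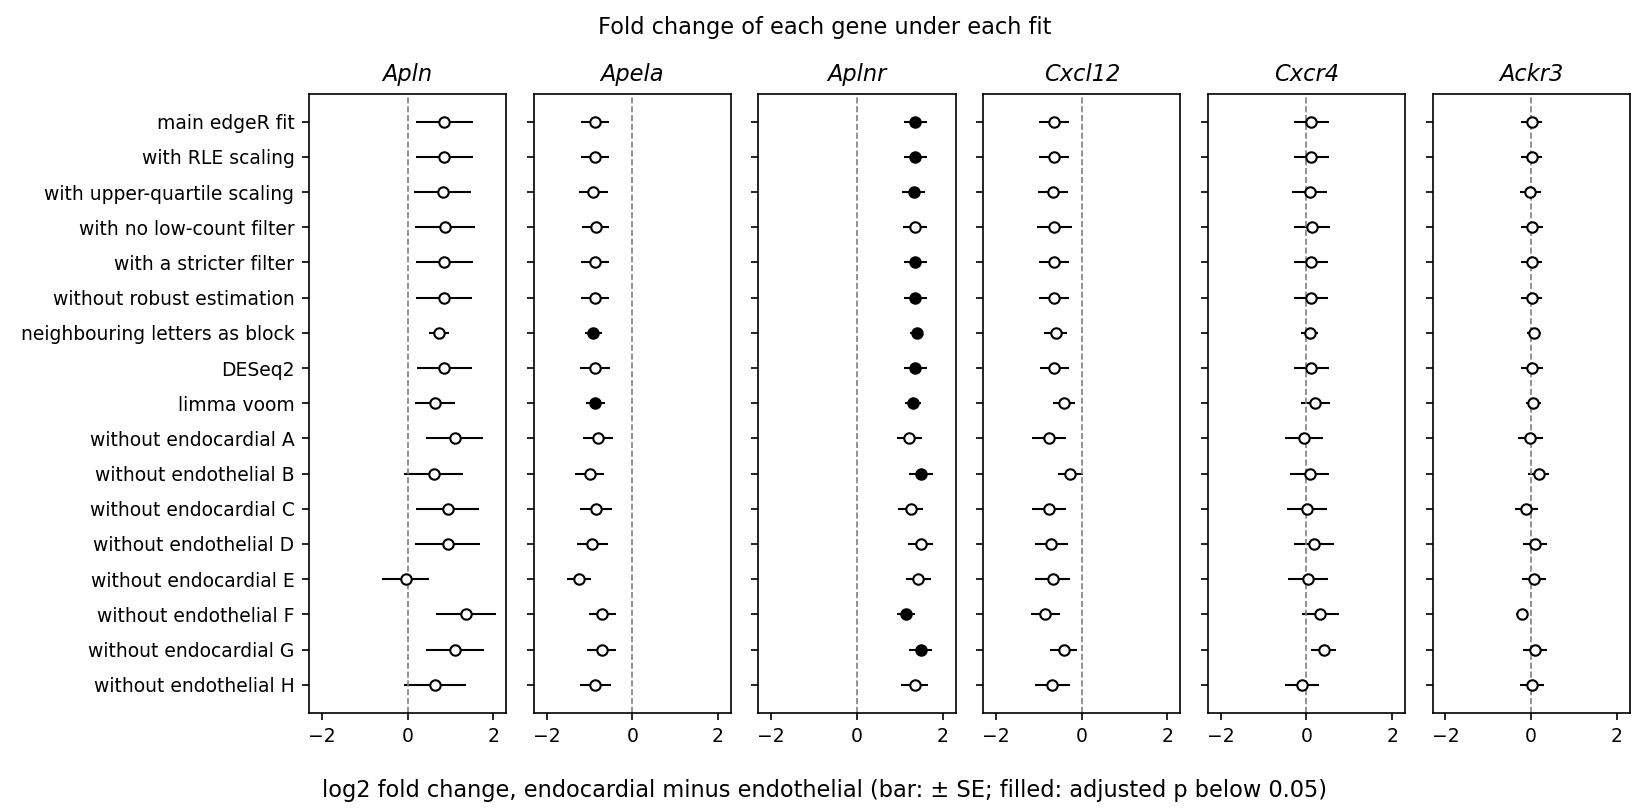
Log2 fold change, endocardial minus endothelial (horizontal axes, ± SE), of each gene under each of 17 fits (rows), with filled points at an adjusted p below 0.05. Aplnr stays between 1.14 and 1.49 in every fit while its call comes and goes, and the Cxcr4 and Ackr3 points fall on both sides of 0.

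Levels of different genes were compared per transcript length, as TPM (counts per kilobase of transcript, scaled to the same sum in every library), from each gene's longest coding transcript. In the endocardial libraries the receptors Aplnr and Ackr3 led, at 112 ± 31.2 and 76.1 ± 15.5 TPM, followed by Cxcl12 at 45.9 ± 16.0, Cxcr4 at 20.3 ± 9.10, Apela at 12.5 ± 5.06 and Apln at 5.55 ± 5.02 (SD, n = 4). Aplnr was above Ackr3, and Ackr3 above Cxcl12, in all 4 endocardial libraries, while the ranges of Aplnr and Ackr3, of Cxcl12 and Cxcr4, of Cxcr4 and Apela, and of Apela and Apln overlapped. In the endothelial libraries Ackr3 and Cxcl12 led together, at 78.2 ± 26.3 and 74.2 ± 34.8 TPM, followed by Aplnr at 45.4 ± 15.3, Apela at 24.05 ± 6.59, Cxcr4 at 19.5 ± 7.59 and Apln at 3.29 ± 2.21 (SD, n = 4). There each neighbour in the order overlapped with the next, except that Apln lay below all others in every library. The Aplnr mean exceeded 89.4% of 13300 tested coding genes in the endocardial group and 70.1% in the endothelial group, and the Apln mean 21.985% and 12.6%.

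**Figure D4:**
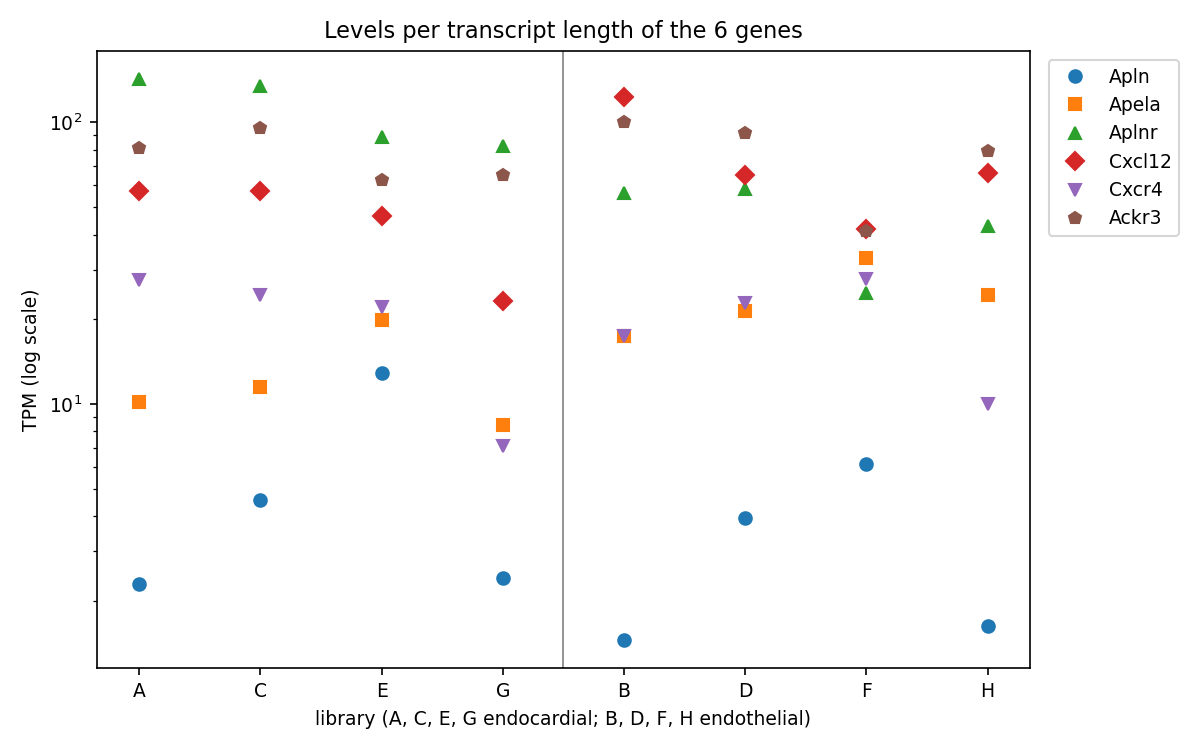
TPM (vertical axis, log scale) of the 6 genes in each library, endocardial to the left and endothelial to the right of the grey line. Aplnr is the highest of the 6 in all 4 endocardial libraries and in none of the endothelial ones, and Apln is the lowest in all 8.

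These levels depend on the length taken for a transcript. The annotated coding transcripts run from 313 to 3699 bases for Aplnr (11.8-fold), from 404 to 3065 for Ackr3 (7.59-fold), from 1878 to 5627 for Cxcl12 and from 902 to 1805 for Cxcr4, while Apln has 1 and those of Apela run from 945 to 975. The deposited values are per gene and do not show which transcript was read. With merged exons in place of the longest transcript, the endocardial means were 144 TPM for Aplnr, 89.6 for Ackr3 and 40.7 for Cxcl12, in the same order. The endothelial means were 92.0 TPM for Ackr3, 65.5 for Cxcl12 and 58.4 for Aplnr, and Ackr3 then led in all 4 endothelial libraries.

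Ligand was set against receptor within each library, where the scaling cancels. Apela transcripts amounted to 7.10% of Aplnr transcripts in A, 8.50% in C, 10.2% in G and 22.4% in E, as a ratio of TPM, against 31.0% in B, 37.1% in D, 56.8% in H and 133% in F. The groups lay apart, as those of the receptor Aplnr alone did (log2 fold change 1.36), while those of the ligand Apela overlapped (-0.87). The ratio thus repeats the Aplnr difference in part. How many other genes have a ratio to Aplnr that lies apart was not computed. F was the only library with more Apela than Aplnr transcripts. The mean log2 ratio of CPM was -5.06 ± 0.71 in the endocardial and -2.77 ± 0.92 in the endothelial libraries (SD, n = 4 each), a 4.88-fold difference. The two-sided exact permutation p was 0.0286, the smallest that 70 assignments of 4 against 4 can give, and 0.143 adjusted over the 5 ratios, which does not pass. However large its difference, a ratio at that smallest p gets 0.143 unless other ratios also have a low p. The adjusted p therefore cannot decide on this ratio alone. The difference in log2 ratio was -2.29, and between -2.63 (without E) and -1.86 (without F) when each library was left out in turn.

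Apln transcripts amounted to 1.61% of Aplnr in A, 2.92% in G, 3.38% in C and 14.6% in E, and to 2.60% in B, 3.78% in H, 6.81% in D and 24.7% in F. The groups overlapped widely, and E and F were highest. The log2 ratio differed by -0.74 (exact permutation p = 0.457, adjusted p = 0.571). In 8 of 8 libraries Aplnr transcripts outnumbered those of Apln.

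Cxcl12 transcripts outnumbered those of Cxcr4 in every library, 2.07-fold in A, 2.10-fold in E, 2.34-fold in C and 3.28-fold in G, and 1.51-fold in F, 2.86-fold in D, 6.63-fold in H and 7.06-fold in B. The endothelial libraries spread on both sides of the endocardial ones (difference in log2 ratio -0.65, exact permutation p = 0.343, adjusted p = 0.571). Against Ackr3, Cxcl12 stood at 0.357 in G, 0.596 in C, 0.702 in A and 0.743 in E, and at 0.707 in D, 0.840 in H, 1.02 in F and 1.23 in B. Of the endocardial libraries 3 lay below all endothelial ones, and E lay above D. The log2 ratio of Cxcl12 to Ackr3 was 0.08 ± 0.48 in the endocardial and 0.77 ± 0.34 in the endothelial libraries (SD, n = 4 each; exact permutation p = 0.0571, adjusted p = 0.143). The ratio of Cxcr4 to Ackr3 was 10.9% to 35.4% in the endocardial and 12.7% to 67.6% in the endothelial libraries, and its log2 difference was -0.03 (exact permutation p = 0.971, adjusted p = 0.971).

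**Figure D5:**
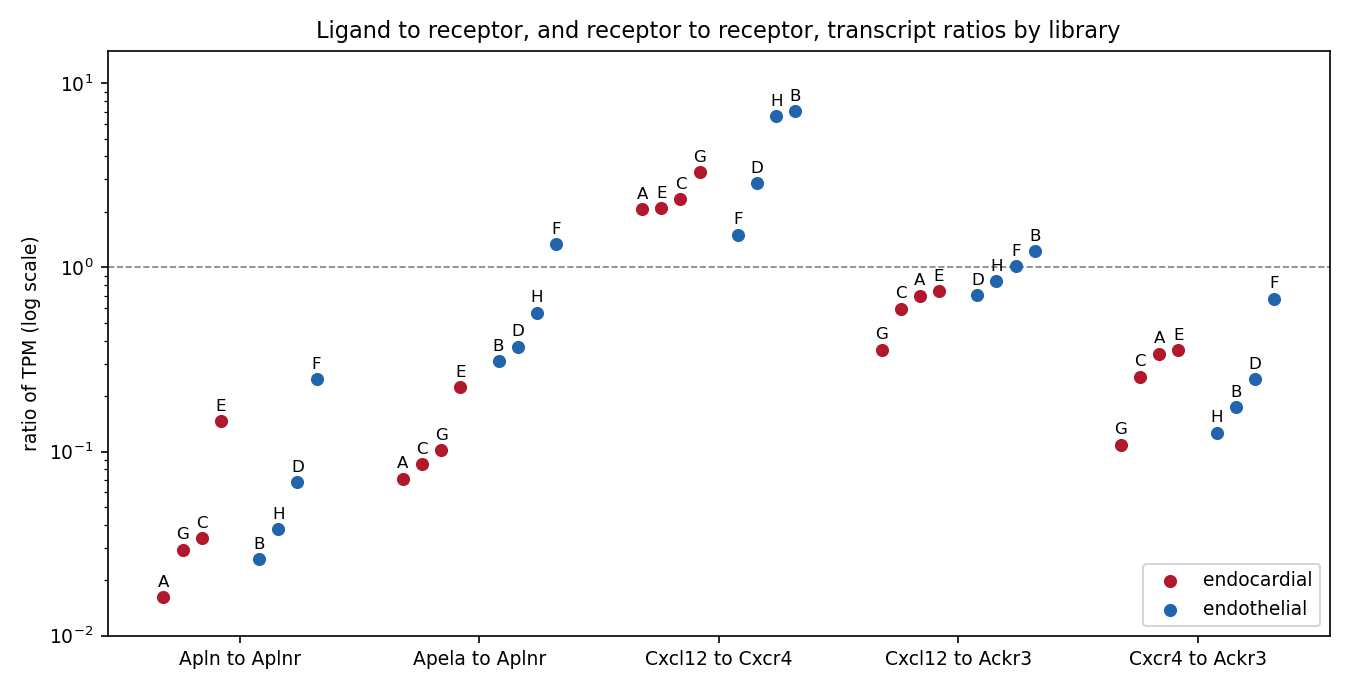
Ratio of TPM of 1 gene to another within a library (vertical axis, log scale; dashed line at equal levels), for 5 ratios and 8 libraries. The Apela to Aplnr ratios of the groups lie apart, at 0.224 or below in the endocardial and 0.310 or above in the endothelial libraries, and the other 4 ratios overlap.

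Other genes of these pathways were read from the same fit, beside a median log2 fold change of 0.01 over all tested genes. The lists were chosen with earlier results of these data known. Over all genes, edgeR called 2.58%, DESeq2 6.25% and limma 7.06%, and 14.6% had an unadjusted p under 0.05 by edgeR. The counts in each list stand beside these shares. Of 8 tested genes of apelin peptide processing and breakdown, 1 was called lower in the endocardial libraries and 7 were not called (list median 0.11). That gene was Pcsk1, a prohormone convertase, with 4, 0, 2 and 1 counts in A, C, E and G and 14, 11, 24 and 16 in B, D, F and H (edgeR adjusted p = 0.0324). The groups lay apart, at counts too low for a reliable fold. Of 14 tested genes that cut, present or hold Cxcl12, among them syndecans and metalloproteases, edgeR called 0, while 3 had an unadjusted p under 0.05 (1 higher, 2 lower), and DESeq2 called 2 lower (Sdc1 and Sdc4) and limma 1 higher (Sdc3). Of 6 tested genes for other ligands and relatives of the receptors, edgeR called 0, with 1 at an unadjusted p under 0.05. DESeq2 called 0 of them and limma 1, Ackr1, an atypical chemokine receptor, at 2.15 against 0.833 CPM. Their medians were -0.07 and 0.11.

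Of 14 G protein subunit genes, 1 was called higher, and 13 were not called (median 0.18). It was Gng11, a gamma subunit gene, at 5.68, 5.97, 11.6 and 8.11 CPM in A, C, E and G and 2.76, 1.90, 2.61 and 1.91 in B, D, F and H (log2 fold change 1.76, SE 0.30, edgeR adjusted p = 0.0162). Its groups lay apart, with E highest. DESeq2 and limma each called 2 higher, adding Gna13, a G alpha subunit gene. Of 13 tested receptor kinase, arrestin and RGS genes, edgeR called 0 (median 0.30), with 2 higher and 1 lower before adjustment at a p under 0.05. Both DESeq2 and limma called 2 of the 13 higher (2.4% and 2.97% of all genes), Arrb1, a beta-arrestin, and Grk2, a kinase that desensitizes such receptors. Of 20 tested genes of downstream signalling and migration, edgeR called 0 (3 higher at an unadjusted p under 0.05, median 0.17), DESeq2 called Elmo1, a Rac activator in migration, and limma called Plcb2, a phospholipase.

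Transcription factors and signals chosen as candidate regulators of these genes had 2 of 18 members called higher, where 1.42% of all genes were, and 0 lower (median 0.33). Tal1, a blood and endothelial factor, was at 123 ± 11.36 against 24.1 ± 12.7 CPM (SD, n = 4 each; log2 fold change 2.34, SE 0.31, edgeR adjusted p = 0.00485). Sox17, a factor of arterial endothelium and of endoderm, was at 9.81 ± 3.27 against 2.74 ± 0.547 CPM (log2 fold change 1.84). DESeq2 and limma each called 5 higher, adding Dll4, Etv2 and Runx1. Of 22 tip cell genes, a list that holds Apln and Cxcr4, 4 were called higher, where 1.42% of all genes were, and 0 lower (median 0.27). They were Flt4, the VEGF-C receptor (log2 fold change 2.06), Kcne3, a potassium channel subunit (2.60), Pdgfb, which recruits mural cells (1.37), and Kdr, the main VEGF receptor (1.34), which is also on the pan-endothelial list. DESeq2 and limma each called 6 higher, adding Dll4 and Robo4.

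The genes whose log2 CPM over the 8 libraries was most like that of each member were taken from 10935 genes with a mean of at least 5 CPM, by Pearson's r, as a description without a test. A gene picked this way shares the library order and group difference of the member largely through the choice itself. For Aplnr they were Fgf3, a fibroblast growth factor gene (r = 0.992), Plcb2 (0.983) and Pitpnm2 (0.982). Fgf3 had 48.9, 41.1, 29.9 and 21.3 CPM in A, C, E and G and 12.1, 15.3, 5.11 and 10.4 in B, D, F and H (log2 fold change 1.72, edgeR adjusted p = 0.0323). That its groups lay apart, in the order of Aplnr in the endocardial libraries and with F lowest, follows largely from this choice. With the group means removed, r between Fgf3 and Aplnr was 0.971. For Apela they were Trap1a (0.975), Gstp2 (0.971) and Esrrb, a pluripotency factor (0.968). Esrrb had 0.775, 1.15, 6.56 and 1.25 CPM in A, C, E and G and 6.15, 11.5, 60.9 and 16.1 in B, D, F and H. That F was highest and E above the other endocardial libraries again follows largely from the choice. Esrrb is also on the list of pluripotency markers given above, so it adds no separate observation.

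The other 4 members were not called by edgeR, and genes picked for likeness to them tend to share that through the choice. Their nearest genes had small group differences, with log2 fold changes from -0.56 to 0.31, none called. They were Ypel3 (0.952), Banf1 (0.950) and Uqcc2 (0.946) for Apln, and Nxn (0.990), Shisa4 (0.982) and Wdr47 (0.958) for Cxcl12. For Cxcr4 they were Sugp1 (0.981), Tle2 (0.962) and Pcyt2 (0.957), and for Ackr3 Prmt2 (0.987), Ctbp1 (0.969) and Gmppb (0.960). No member was among the 3 nearest genes of another member.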

How the data were processed

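For each of 8 libraries the authors deposited 1 column of estimated counts by gene symbol. Salmon, DESeq2 and build mm10 are named per the submitters' processing notes, and a stranded mRNA kit per the labels' protocols. The sources used here do not give versions, transcript set or filters. The estimated counts were whole as deposited, and rounding before the count tests changed 0 values.

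Genes passing filterByExpr (at least 10 counts, total of at least 15) entered a robust quasi-likelihood F-test in edgeR 4.0.16 (R 4.3.3) on all 8 libraries after TMM scaling, with Benjamini-Hochberg adjustment over 13817 genes and calls at 0.05. SEs were back-calculated from the F statistic, as the size of the log2 fold change over its root. TPM used the longest coding transcript of GENCODE M21 (GRCm38, the assembly of mm10) over 21528 symbols. Ratios were log2 CPM (prior count 2) differences, compared by two-sided exact permutation over 70 assignments. Named genes were the members, up to 4 called genes with the smallest p per pathway list and the 3 nearest genes per member. Of each marker list, up to 3 of the most abundant markers could be named, and not all were. Ackr1, Arrb1, Grk2, Elmo1, Plcb2, Sdc1, Sdc3, Sdc4, Gna13, Dll4, Robo4, Etv2, Runx1 and the called markers were named after their values were seen. The members and lists were chosen with earlier results of these data known. Alternatives were DESeq2 1.42.0, limma 3.58.1 with voom and sample quality weights, other scalings, filters, lengths and prior counts, and leaving out each library. The edgeR fit was tested on simulated data.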

Additional observations from a re-analysis of the deposited data

How the results depend on the processing

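The number of called genes was 356, and 860 by DESeq2 (330 higher, 530 lower), 975 by limma (410 higher, 565 lower), against 196 higher and 160 lower by edgeR, 1204 with libraries of neighbouring letters as a replicate block, and 135 to 457 when 1 library was left out. Aplnr kept its direction in all 16 alternatives and its call in 10 of them. With no low-count filter its log2 fold change was 1.36 (edgeR adjusted p = 0.0523, with 22728 genes tested), and it was 1.14 to 1.49 when 1 library was left out. Apela kept its direction in all 16 and was called in 2, by limma (-0.86) and with the replicate block (-0.91, adjusted p = 0.0305). No label pairs the libraries. Deviations from the group means correlated over genes at 0.32 to 0.61 for neighbouring letters and at -0.41 to 0.05 for other pairs, a hint from the data, not the design. The block changed no other member's call, and gave 0.73 for Apln (SE 0.23, adjusted p = 0.0982). Directions turned for Apln without E (-0.047, with at most 1.36 without another library), for Cxcr4 (-0.10 to 0.40), for Ackr3 (-0.21 to 0.18 over libraries, and -0.022 with upper-quartile scaling) and for the Cxcr4 to Ackr3 ratio (-0.35 to 0.45). None of these was called under any alternative, and the cause was not tested. The Aplnr level in the endocardial libraries was 144 TPM with merged exons in place of 112. The exact p of the Apela to Aplnr ratio, computed with each library left out after the data were seen, was 0.0286 without A, B, C, D, E or G and 0.0571 without F or H. No ratio passed after adjustment over the 5 (lowest 0.143), which a ratio alone at the smallest p could not do. Counts limit Apln and Apela most, with as few as 17 and 27 in a library.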
